A study of Mus musculus with 6 samples.

Results

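The 10 integrin genes described here encode chains known from leukocytes. They are the α chain genes Itgam, Itgax, Itgal, Itga4, Itga6 and Itgav and the β chain genes Itgb1, Itgb2, Itgb5 and Itgb7. They were taken by symbol from a table of 21760 genes, with no cut on their values but with earlier results of these data known. All 10 were among the 15560 genes with enough counts to be tested. The libraries were made from macrophages that had been sorted out of MC38 tumours. MC38 is a colon carcinoma line of the mouse, and it had been grown subcutaneously in C57BL6 mice over 16 days.

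In 4 libraries the tumour lacked Xkr8 (KO). The product of Xkr8 is a scramblase that brings phosphatidylserine to the surface of dying cells. Of these, 2 libraries came from KO clone 2 and 2 from KO clone 1. In the other 2 libraries the tumour was wild type (WT). Each library came from a separate mouse, and no mouse had a further treatment. The knockout sits in the tumour, while the macrophages come from the host, so the level of Xkr8 in them (4.14 to 6.97 CPM with KO tumours, 6.05 and 6.90 CPM with WT tumours) does not check the labels. With 2 clones, loss of Xkr8 and other traits of the clones cannot be told apart.

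An integrin is a surface receptor made of 1 α and 1 β chain that ties a cell to its matrix or to another cell. Talin and kindlin switch it on from inside the cell, and bound integrins signal inwards through Src family kinases, Syk and focal adhesion proteins. In macrophages the β2 integrins serve adhesion and the uptake of complement-coated particles. The αv integrins with β3 or β5 take up apoptotic cells through the bridge protein MFG-E8, which binds phosphatidylserine.

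None of the 10 genes passed the test between macrophages of KO and WT tumours. Levels are given as CPM, which are counts scaled to the library size with TMM factors. Over all genes, edgeR's quasi-likelihood test called 0.135% in KO against WT at an adjusted p under 0.05, so a count of 0 of 10 lies near the background. At an unadjusted p under 0.05 there was 1 member, Itgb5, against 13.6% of all genes tested, and DESeq2 called 0 of 10 with 3.21% of all genes called. The log2 fold changes of the members ranged from -1.27 for Itgal to 0.53 for Itga4. Of the 10, 4 were positive and 6 negative, with a median of -0.08 against 0.003 over all genes tested.

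**Figure D1:**
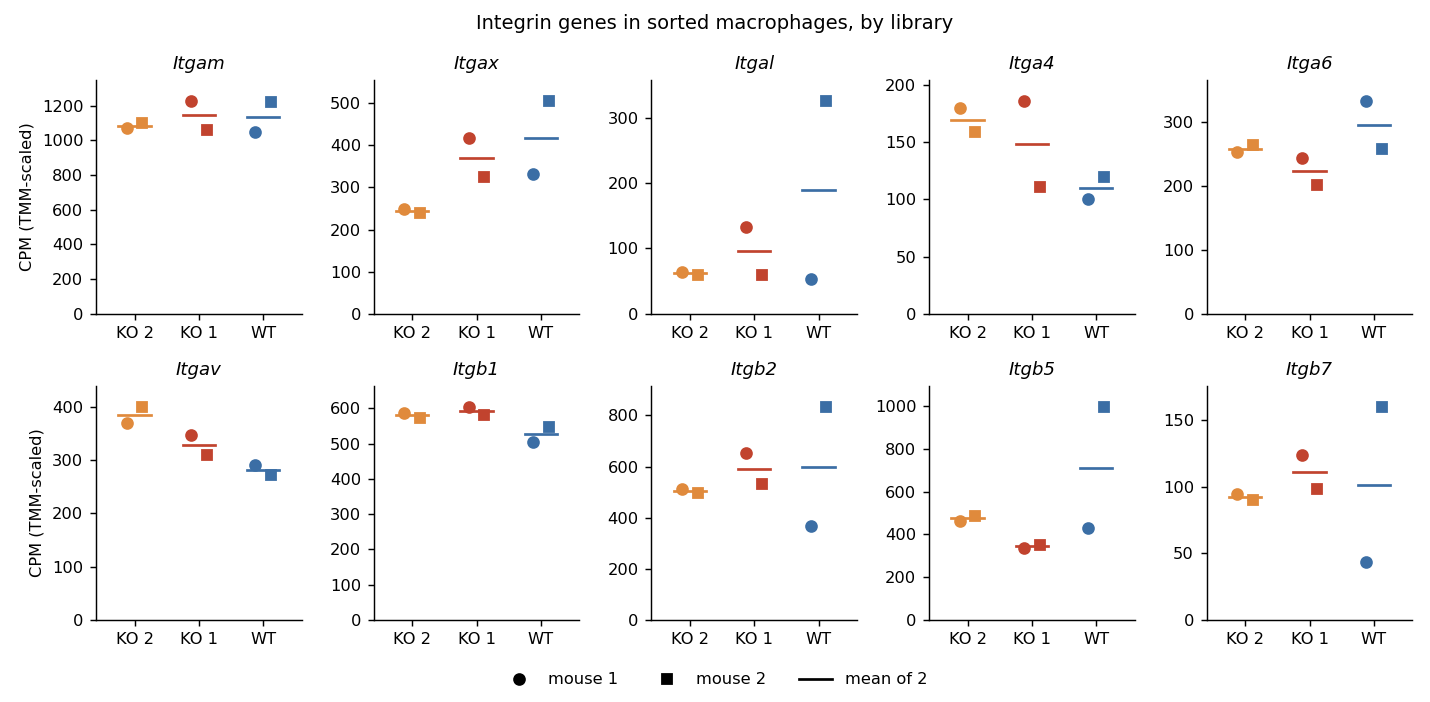
Level of each integrin gene in CPM (vertical axes from 0) in macrophages from tumours of KO clone 2 (KO 2), KO clone 1 (KO 1) and WT, with 1 point per mouse (circle for mouse 1, square for mouse 2) and a line at the mean of 2. The 2 WT points lie far apart for Itgal (53.7 and 326 CPM), Itgb2, Itgb5 and Itgb7, while the KO points of Itgb1 lie within 572 to 604 CPM.

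The 2 WT libraries differed from each other more than the KO libraries did, and this touches most values below. WT mouse 2 held 20038047 counts, against 37090034 to 40022755 in the other 5 libraries, and 24.6% of its counts were Rn45s, a ribosomal RNA precursor, against 1.46% to 7.12%. Its levels also followed the GC content of the transcript. The Spearman correlation across 10071 genes between GC content and a gene's deviation from its median level was -0.41 and -0.29 in the clone 2 libraries and -0.0032 and 0.10 in the clone 1 libraries, against -0.016 in WT mouse 1 and 0.61 in WT mouse 2. Genes are not independent replicates, so no p is given for it.

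Macrophage markers were high in every library, with a sum over 10 genes of 10143 to 12058 CPM in KO and 9502 and 12447 CPM in WT libraries. Monocyte markers summed to 1917 to 2387 CPM in KO and 1543 and 917 CPM in WT libraries. T and NK cell markers summed to 132 to 246 CPM in KO and 28.3 and 51.6 CPM in WT libraries. Of their 18 genes, 16 lay higher in every KO library than in either WT library, against 12.9% of all genes tested. So did 7 of 10 monocyte, 6 of 9 dendritic cell, 4 of 7 neutrophil, 3 of 10 macrophage and 2 of 6 endothelial markers. It was 1 of 5 B cell, 1 of 5 mast cell, 1 of 7 fibroblast and 0 of 5 epithelial or tumour markers. Lower in every KO library were 1 neutrophil, 1 fibroblast and 1 epithelial or tumour marker. Neutrophil markers summed to 56.3 to 74.7 CPM in KO and 40.1 and 38.9 CPM in WT libraries, with Ly6g under 1 CPM throughout, and dendritic cell markers to 38.0 to 55.8 CPM in KO and 23.2 and 32.7 CPM in WT libraries. Endothelial markers summed to 46.6 to 60.2 CPM in KO and 21.5 and 26.1 CPM in WT libraries, B cell markers to 8.44 to 13.6 CPM in KO and 5.89 and 3.92 CPM in WT libraries, and mast cell markers to 1.64 to 4.29 CPM in KO and 2.0 and 1.51 CPM in WT libraries. Fibroblast markers summed to 2391 to 3930 CPM in KO and 4127 and 11980 CPM in WT libraries, most of it Col3a1, and epithelial or tumour markers to 11.1 to 12.8 CPM in KO and 15.6 and 44.1 CPM in WT libraries, most of it Cdh1. No marker list summed to 0, and the part of any of these cells in the integrin values was not tested. In bulk RNA, a change in the number of cells of a type and a change in RNA per cell cannot be told apart.

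Itgam encodes αM (CD11b), which with β2 forms Mac-1, the receptor for the complement fragment iC3b, fibrinogen and ICAM-1. Its level was 1070.3 and 1101 CPM in clone 2 and 1228 and 1062 CPM in clone 1 libraries, against 1051 and 1221 CPM in WT libraries. The groups overlapped throughout, and the highest library was a KO one and the lowest a WT one. Itgam averaged 1115 ± 77.0 CPM in KO (SD, n = 4) and 1136 ± 120.4 CPM in WT libraries (SD, n = 2). The difference on the log2 scale was -0.03 ± 0.18 (SE; adjusted p = 0.944 in edgeR). It was the steadiest of the α chains of β2 between WT mice, with mouse 2 at 1.16 times mouse 1.

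Itgax encodes αX (CD11c), the other phagocytic partner of β2, known from dendritic cells and from many tissue macrophages. It stood at 249 and 239 CPM in clone 2 and 417 and 325 CPM in clone 1 libraries, against 332 and 505 CPM in WT libraries. Both clone 2 libraries lay below all other libraries, while the clone 1 libraries overlapped WT. In KO against WT the log2 fold change was -0.45 ± 0.28 (SE; adjusted p = 0.451 in edgeR). For clone 2 alone against WT it was -0.78 ± 0.28 with an unadjusted p of 0.029 and an adjusted p of 0.419 in edgeR, so it did not pass. For clone 1 against WT it was -0.17 ± 0.28 (adjusted p = 0.815 in edgeR). Without WT mouse 2 it was -0.14 ± 0.30 in KO, -0.47 ± 0.18 in clone 2 and 0.13 ± 0.18 in clone 1 against WT, and without WT mouse 1 it was -0.70 ± 0.29 in KO against WT. The sort markers are not stated, and the part of the gate in the levels of Itgam and Itgax was not tested.

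Itgam and Itgax lie side by side on the plus strand of chromosome 7, Itgam at chr7:128062640-128118491 and Itgax at chr7:128129547-128150657 (GRCm38, GENCODE M21), with 11056 bases from the end of the first to the start of the second. Their promoters are shown because the libraries of the 2 clones overlapped for Itgam and did not overlap for Itgax. Such separation was common, with both clone 2 libraries lower in 22.7% and higher in 21.8% of all genes tested. The letters are those of the reference genome, not of these libraries. Each line gives the 250 bases on the plus strand before the gene start in RefSeq on GRCm38.p6, with GAGGAA (or TTCCTC, its reverse complement) in capitals. For Itgax the RefSeq start lies slightly downstream of the GENCODE start given above, so the window ends just inside the GENCODE gene. GAGGAA is a longer form of the site bound by PU.1, the ETS factor of myeloid cells. The shorter ETS core GGAA was not marked, and it occurs in both windows.

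Itgam, chr7:128062390-128062639: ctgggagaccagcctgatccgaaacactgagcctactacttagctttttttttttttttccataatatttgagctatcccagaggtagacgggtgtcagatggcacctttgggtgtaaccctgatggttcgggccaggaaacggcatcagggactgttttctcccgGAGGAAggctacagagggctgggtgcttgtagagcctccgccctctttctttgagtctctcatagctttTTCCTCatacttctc
Itgax, chr7:128129300-128129549: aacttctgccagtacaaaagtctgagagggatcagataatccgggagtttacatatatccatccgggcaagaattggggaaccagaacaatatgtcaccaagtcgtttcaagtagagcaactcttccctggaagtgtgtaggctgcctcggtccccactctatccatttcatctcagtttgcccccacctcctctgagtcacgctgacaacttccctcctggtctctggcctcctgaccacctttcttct

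The Itgam window held the motif at 2 places, 1 on each strand, and these letters were not in the Itgax window. Among the 7 members with an entry in the promoter table, 3 held it (Itgam, Itgav and Itgb1), and it was in 23.3% of 32851 promoters of the same length. A match is a description of the letters only.

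Itgal encodes αL (CD11a), which with β2 forms LFA-1, a receptor for ICAM-1 that is prominent on lymphocytes. It lies on the same chromosome at chr7:127296260-127335138 on the plus strand. Its level was 63.9 and 59.4 CPM in clone 2 and 133 and 59.2 CPM in clone 1 libraries, against 53.7 and 326 CPM in WT libraries. The lowest and the highest of the 6 values were both WT, and the KO values lay between them. The log2 fold change was -1.27 ± 0.63 (SE; adjusted p = 0.397 in edgeR), and without WT mouse 2 it was 0.53 ± 0.46 (adjusted p = 0.847 in edgeR). The KO library with the highest Itgal, clone 1 mouse 1, also had the highest sum of T and NK cell markers, 246 CPM, while WT mouse 2 had a sum of 51.6 CPM beside its 326 CPM of Itgal.

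Itgb2 encodes β2 (CD18), the shared partner of these α chains. It stood at 513 and 496 CPM in clone 2 and 652 and 531 CPM in clone 1 libraries, against 367 and 833 CPM in WT libraries. As for Itgal, WT held both extremes and the KO libraries lay between. The log2 fold change was -0.13 ± 0.32 (SE; adjusted p = 0.828 in edgeR), and without WT mouse 2 it was 0.55 ± 0.20 (adjusted p = 0.456 in edgeR).

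Within a library, the make-up of the β2 α chains can be given as shares of their summed CPM per kb of transcript, which do not depend on library size. Itgam made up 79.3% and 80.5% of the sum in clone 2 and 71.5% and 75.4% in clone 1 libraries, against 75.1% and 62.6% in WT libraries. Itgax made up 16.9% and 16.0% in clone 2 and 22.2% and 21.1% in clone 1 libraries, against 21.7% and 23.7% in WT libraries, so both clone 2 libraries were below the other 4. Itgal made up 3.43% to 6.31% in KO libraries, against 3.14% and 13.7% in WT libraries.

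The mean share of Itgam was 76.7% ± 4.06 in KO (SD, n = 4) and 68.9% ± 8.86 in WT libraries (SD, n = 2), with a two-sided exact permutation p of 0.2. For Itgax it was 19.0% ± 3.07 in KO and 22.7% ± 1.42 in WT libraries (exact permutation p = 0.2), and for Itgal 4.29% ± 1.36 in KO and 8.40% ± 7.44 in WT libraries (exact permutation p = 0.333). With 4 KO and 2 WT libraries the smallest p this exact test allows is 0.0667. The difference in the Itgam share was 7.78 percentage points, with 1.52 points without WT mouse 2 and 14.05 points without WT mouse 1. The difference in the Itgal share was -4.11 points, with 1.15 points without WT mouse 2 and -9.37 points without WT mouse 1.

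**Figure D2:**
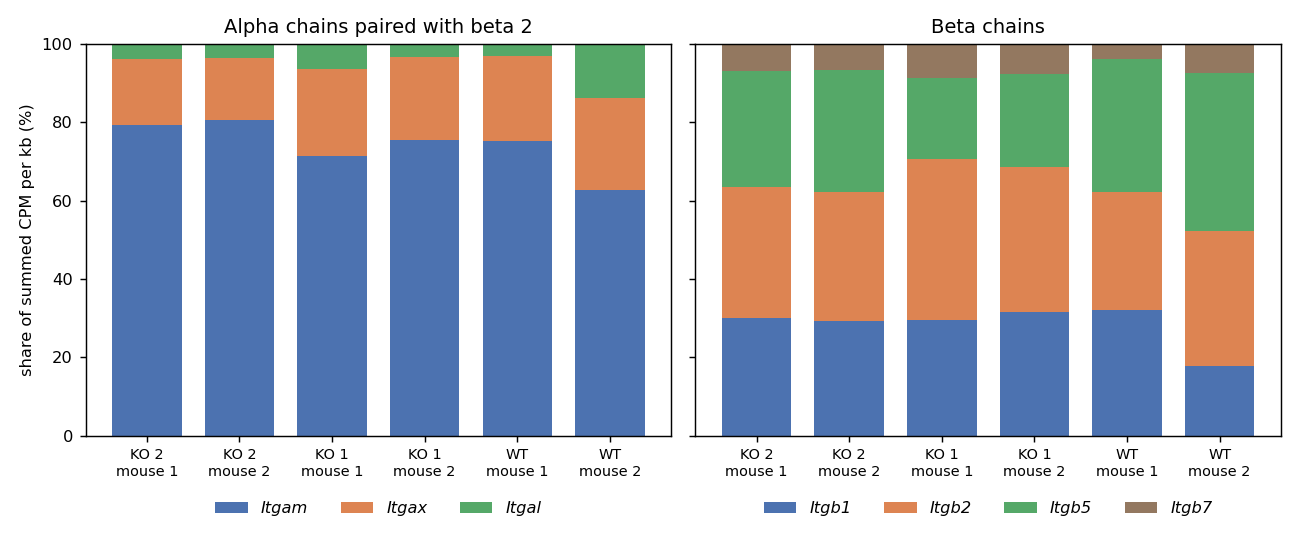
Share of each α chain of β2 (left) and each β chain (right) in the summed CPM per kb of transcript, in percent, with 1 bar per library and KO clone 2 (KO 2), KO clone 1 (KO 1) and WT from left to right. Itgam is the largest α share in every library at 62.6% to 80.5%, and Itgb5 takes 40.3% of the β chains in WT mouse 2 against 20.7% to 34.0% in the other 5 libraries.

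Itga4 encodes α4 (CD49d), which pairs with β1 to bind VCAM-1 and fibronectin and with β7 to bind MAdCAM-1, and which monocytes and lymphocytes use to enter tissue. It stood at 179.9 and 159 CPM in clone 2 and 186 and 110.4 CPM in clone 1 libraries, against 100 and 119.6 CPM in WT libraries. In 3 of 4 KO libraries it was above both WT libraries, and clone 1 mouse 2 lay between them. Its log2 fold change, 0.53 ± 0.24 (SE), was the most positive of the members, with an unadjusted p of 0.0625 and an adjusted p of 0.38 in edgeR. Itga4 had the lowest GC content of the members, 41.1%, and with levels corrected for GC content in each library the log2 fold change was -0.10 ± 0.32.

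Itgb7 encodes β7, the partner of α4 in lymphocyte homing and of αE. It stood at 94.2 and 90.2 CPM in clone 2 and 123 and 97.8 CPM in clone 1 libraries, against 43.0 and 159.5 CPM in WT libraries. All KO libraries lay between the 2 WT mice, which differed 3.71-fold. The means were 101 ± 14.9 CPM in KO (SD, n = 4) and 101 ± 82.4 CPM in WT libraries (SD, n = 2), and the log2 fold change was 0.005 ± 0.44 (SE; adjusted p = 0.995 in edgeR). Against WT mouse 1 alone it was 1.21 ± 0.21 (adjusted p = 0.0785 in edgeR), the largest positive difference among the members there, and it did not pass.

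The ratio of Itgb7 to Itgb2 per length was nearly fixed in KO libraries, at 0.203 and 0.202 in clone 2 and 0.209 and 0.204 in clone 1 libraries, against 0.130 and 0.212 in WT libraries. WT mouse 1 had the lowest ratio, and the KO values lay between it and WT mouse 2. The GC content is 58.0% for Itgb7 and 53.1% for Itgb2, and levels in WT mouse 2 rose with GC content. The part of this in the ratio of WT mouse 2 was not tested. Itgae, the αE partner of β7, had 0.549 to 1.05 CPM per kb of transcript in KO and 0.429 to 0.508 in WT libraries, while Itgb7 had 33.6 to 46.0 in KO and 16.0 and 59.5 in WT libraries.

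Itgb1 encodes β1 (CD29), the common partner of α4, α5, α6 and αv among others. It stood at 588 and 572 CPM in clone 2 and 604 and 581 CPM in clone 1 libraries, against 506 and 548 CPM in WT libraries. Every KO library was above both WT libraries, but by little. The means were 586 ± 13.4 CPM in KO (SD, n = 4) and 527 ± 29.7 CPM in WT libraries (SD, n = 2), the log2 fold change was 0.15 ± 0.16 (SE) and the adjusted p 0.612 in edgeR. With levels corrected for GC content the log2 fold change was -0.18 ± 0.19.

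Itga6 encodes α6 (CD49f), a laminin receptor chain. It stood at 254 and 264 CPM in clone 2 and 245 and 202 CPM in clone 1 libraries, against 334 and 258 CPM in WT libraries. Of the KO libraries, 3 of 4 lay below both WT libraries, and clone 2 mouse 2 lay between them. The log2 fold change was -0.30 ± 0.19 (SE; adjusted p = 0.457 in edgeR), without WT mouse 2 it was -0.49 ± 0.17 (adjusted p = 0.449 in edgeR), and without WT mouse 1 it was -0.08 ± 0.18 (adjusted p = 0.735 in edgeR). Itga6 and Itgav were the members that were lower in WT mouse 2 than in WT mouse 1.

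Itgav encodes αv (CD51), which with β3 or β5 binds vitronectin and MFG-E8 and with β8 or β6 activates TGF-β. It stood at 368 and 399 CPM in clone 2 and 347 and 309 CPM in clone 1 libraries, against 289.6 and 272 CPM in WT libraries. All KO libraries were above both WT libraries, with the clone 2 libraries highest. The means were 356 ± 37.8 CPM in KO (SD, n = 4) and 281 ± 12.5 CPM in WT libraries (SD, n = 2), and the log2 fold change of 0.34 ± 0.18 (SE) had an adjusted p of 0.402 in edgeR. Itgav is also rich in A and T (43.5% GC), and with levels corrected for GC content the log2 fold change was -0.06 ± 0.20.

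Itgb5 encodes β5, the αv partner in the uptake of apoptotic cells. It stood at 465 and 488 CPM in clone 2 and 338 and 349 CPM in clone 1 libraries, against 428 and 996 CPM in WT libraries. The clone 1 libraries were the lowest, the clone 2 libraries lay above WT mouse 1, and WT mouse 2 stood far above all others. The log2 fold change of KO over WT was -0.80 ± 0.33 (SE; unadjusted p = 0.0456, adjusted p = 0.361 in edgeR), and without WT mouse 2 it was -0.09 ± 0.24 (adjusted p = 0.967 in edgeR). With levels corrected for GC content it was -0.48 ± 0.28 (unadjusted p = 0.127 in edgeR). Of the other αv partners, Itgb3, Itgb6 and Itgb8 were scarce. They had at most 0.973 CPM per kb of transcript in any KO and 0.974 in any WT library. Itgb5 had at least 110.5 CPM per kb in KO and 140.1 in WT libraries. Itgb1, whose product also pairs with αv, had 149.9 to 158 CPM per kb in KO and 133 and 144 in WT libraries.

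As shares of the 4 β chains per length, Itgb5 made up 29.6% and 31.3% in clone 2 and 20.7% and 23.7% in clone 1 libraries, against 34.0% and 40.3% in WT libraries. This was the only β share in which all KO libraries lay on 1 side of both WT libraries. The GC content is 57.6% for Itgb5 and 44.8% for Itgb1, and levels in WT mouse 2 rose with GC content. The part of this in the β shares was not tested. The means were 26.3% ± 4.97 in KO (SD, n = 4) and 37.1% ± 4.44 in WT libraries (SD, n = 2), with an exact permutation p of 0.133. Itgb2 averaged 36.1% ± 3.81 in KO and 32.3% ± 3.31 in WT libraries (exact permutation p = 0.333), Itgb1 30.1% ± 0.996 in KO and 24.96% ± 10.2 in WT libraries (exact permutation p = 0.4), and Itgb7 7.40% ± 0.905 in KO and 5.62% ± 2.44 in WT libraries (exact permutation p = 0.267). Over the 7 shares tested, α and β together, the adjusted p-values were 0.389 to 0.4.

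Set in order by CPM per kb of transcript, Itgam led in both genotypes, with a mean of 301 in KO and 307 in WT libraries. In KO libraries it was followed by Itgb2 (184), Itgb1 (154), Itgb5 (134), Itgax (76.0), Itga6 (58.0), Itgav (50.5), Itgb7 (37.8), Itgal (17.4) and Itga4 (16.3). The KO ranges of neighbours overlapped for Itgb1 and Itgb5, for Itgax and Itga6, for Itga6 and Itgav, for Itgav and Itgb7 and for Itgal and Itga4, so the order within these pairs does not exceed the spread between KO libraries. The whole order also rests on the length of a single chosen transcript per gene. For Itga4 this was 9767 bases, with 3096 of them coding, and for Itgam 3701 bases, with 3501 coding. An order by coding length was not taken. In WT libraries the second place went to Itgb5 with a mean of 233, ahead of Itgb2 (202) and Itgb1 (138), and Itgal with a mean of 41.9 stood above Itgav (39.8) and Itgb7 (37.7). In WT mouse 1 alone Itgb5 (140.1) was also ahead of Itgb1 (133) and Itgb2 (124), while Itgal with 11.9 CPM per kb was below Itgav (41.1) and Itgb7 (16.0). The place of Itgal in WT therefore rests on WT mouse 2, with 71.96 CPM per kb there.

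**Figure D3:**
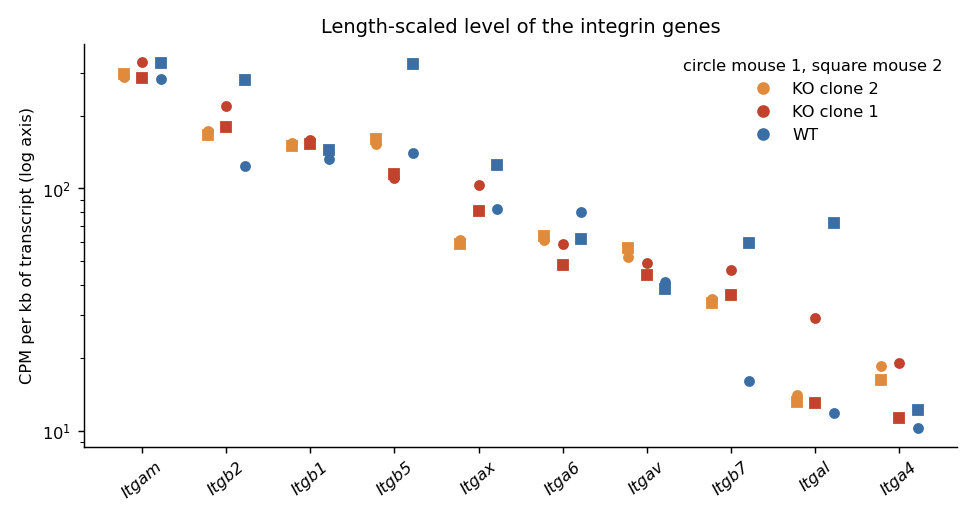
CPM per kb of transcript (log axis) of the 10 genes, ordered by their mean in KO libraries, with circles for mouse 1 and squares for mouse 2, and KO clone 2 in orange, KO clone 1 in red and WT in blue. Itgam lies at 284 to 332 in all 6 libraries, while Itgal spans 11.9 to 71.96 within WT.

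Between genotypes, 2 members (Itgav and Itgb1) lay higher in all 4 KO libraries than in both WT libraries, against 12.9% of all genes tested. No member lay lower in all 4, against 10.7%, and the ranges of the other 8 overlapped. The GC content of both members is under 45%, and with levels corrected for GC content both log2 fold changes turned negative, as given above. That correction, chosen after the data were seen, called 0 of the 10 members, with 0.304% of all genes called.

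Between WT mice, 4 members (Itgal, Itgb7, Itgb5 and Itgb2) were more than 2-fold higher in mouse 2 than in mouse 1, against 9.0% of all genes tested, at 6.07, 3.71, 2.33 and 2.27 times. These are the 4 members with the highest GC content, 53.7%, 58.0%, 57.6% and 53.1%. Itga4, Itgav and Itgb1, the members under 45% GC, stood at 1.20, 0.939 and 1.08 times. Between these groups, Itga6 (48.5% GC) was lowest of all members at 0.773 times, with Itgam (50.7%) at 1.16 and Itgax (51.6%) at 1.52 times. The order of the members by ratio largely followed their order by GC content. It did not do so strictly, with Itga6 rather than Itga4 lowest and Itgal rather than Itgb7 highest. Over all genes the median deviation in WT mouse 2 was -0.72 on the log2 scale at 40 to 45% GC, 0.11 at 50 to 55% and 0.44 at 55 to 60%.

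**Figure D4:**
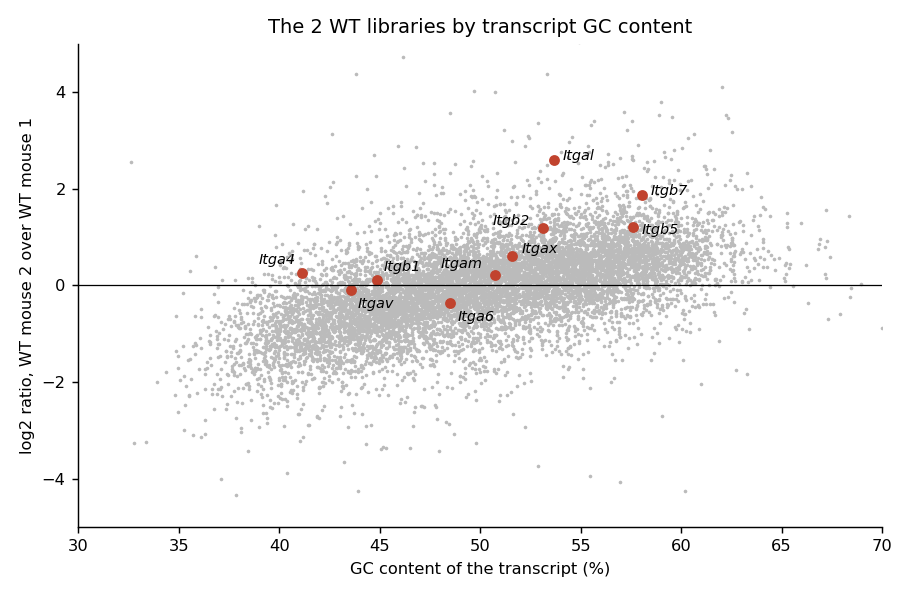
Log2 ratio of WT mouse 2 over WT mouse 1 (vertical axis, CPM plus 0.5) against the GC content of the transcript (horizontal axis, percent), with grey points for genes of at least 5 CPM on average and red points for the integrin genes. Itgal at 6.07 times stands farthest above 0 among the members, and Itga6 at 0.773 times is lowest.

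Because the WT mice differ this much, the KO against WT values were also taken against each WT mouse alone. Without WT mouse 2, edgeR called 0 of 10 members with 0.174% of all genes called, and 7 log2 fold changes were positive. Without WT mouse 1, it called 4 members lower, Itgal (-2.04 ± 0.40), Itgb5 (-1.27 ± 0.22), Itgb7 (-0.64 ± 0.18) and Itgb2 (-0.59 ± 0.19), with 37.5% of all genes called. These calls rest on WT mouse 2 as the lone WT library and assume that it varies like the KO libraries. The direction of Itgam, Itgal, Itgb2 and Itgb7 depended on which WT mouse was used, that of Itgax, Itga6 and Itgb5 was negative and that of Itga4, Itgav and Itgb1 was positive against either.

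**Figure D5:**
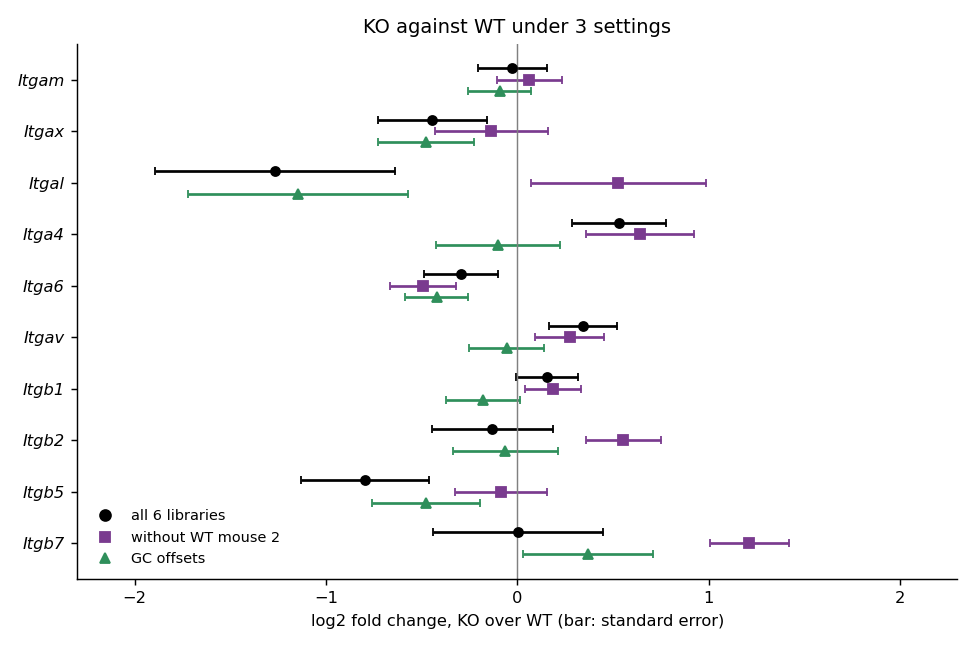
Log2 fold change of each integrin gene, KO over WT, with its standard error, from all 6 libraries (black circles), without WT mouse 2 (purple squares) and with levels corrected for GC content (GC offsets, green triangles). Itgal and Itgb2 lie on opposite sides of 0 with and without WT mouse 2, and Itga4, Itgav and Itgb1 lie above 0 with all libraries and below 0 with GC offsets.

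Taken by clone, 0 of 10 members passed in clone 2 against WT, with 0.00643% of all genes called, and 0 of 10 in clone 1 against WT, with 0.00643% called. At an unadjusted p under 0.05 there was 1 member in each, Itgax for clone 2 (against 11.3% of all genes) and Itgb5 for clone 1 (against 7.10%). For Itgb5 the log2 fold change against WT was -0.58 ± 0.39 with clone 2 (adjusted p = 0.511 in edgeR) and -1.05 ± 0.39 with clone 1 (adjusted p = 0.665). Without WT mouse 2 these were 0.13 ± 0.14 with clone 2 and -0.35 ± 0.14 with clone 1, so the direction for clone 2 turned. Both contrasts share the WT libraries. Without WT mouse 1, edgeR called 6 members in clone 2 (Itgal, Itgax, Itgb2, Itgb5 and Itgb7 lower and Itgav higher), with 40.2% of all genes called, and 2 in clone 1 (Itgal and Itgb5, both lower), with 34.5% of all genes called.

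Clone 2 and clone 1 were compared directly without WT values in the difference, but the spread was estimated over all 3 groups, WT included. No member passed, with 0 of 15560 genes called by edgeR and 3.23% of all genes, none of them a member, under an unadjusted p of 0.05. DESeq2 called 0.752% of all genes and 0 of 10 members. The largest differences were Itgal at -0.64 ± 0.78, Itgax at -0.60 ± 0.28 and Itgb5 at 0.47 ± 0.39 (SE), each with an adjusted p of 1 in edgeR. Itgal overlapped between clones, while Itgax was lower in both clone 2 libraries and Itgb5 higher. The standard errors depended on the WT libraries. Without WT mouse 1 the differences were -0.64 ± 0.34 for Itgal, -0.60 ± 0.15 for Itgax and 0.47 ± 0.12 for Itgb5. Without WT mouse 2 they were -0.63 ± 0.34 for Itgal, -0.60 ± 0.15 for Itgax and 0.48 ± 0.12 for Itgb5.

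The clone libraries did not overlap for 6 members. Itga6, Itgav and Itgb5 were higher in both clone 2 libraries, against 21.8% of all genes tested, and Itgax, Itgb2 and Itgb7 were lower in both, against 22.7%. The ratio of Itgb5 to Itgb1 per length was 0.987 and 1.07 in clone 2 and 0.698 and 0.751 in clone 1 libraries. In WT mouse 1 it was 1.06 and in WT mouse 2 it was 2.27. The clone 2 mice were close to each other, with a median difference of 1.04-fold over the members and at most 1.13-fold (Itga4). The clone 1 mice differed more, with a median of 1.22-fold and up to 2.24-fold for Itgal, and 9 of 10 members were higher in mouse 1.

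The other 16 integrin chains were all tested, and none passed in any of the 4 contrasts. In KO against WT 6 were positive and 10 negative, with a median log2 fold change of -0.42 against 0.003 over all genes tested. At an unadjusted p under 0.05 in edgeR there were 4, against 13.6% of all genes tested. The smallest p was that of Itga7, a scarce chain with 0.382 to 1.04 CPM in KO and 4.81 and 8.60 CPM in WT libraries. Its log2 fold change was -3.31 ± 0.44 (adjusted p = 0.0531 in edgeR). Per kb of transcript, Itga5 and Itga9 were the abundant ones, Itga5 with 11.6 to 26.2 CPM in KO and 12.99 and 53.2 CPM in WT libraries and Itga9 with 16.1 to 18.6 CPM in KO and 17.7 and 30.5 CPM in WT libraries, while none of the other 14 exceeded 2.47 CPM per kb. Itga5, the α chain of the fibronectin receptor, had 50.9 and 55.5 CPM in clone 2 and 115 and 67.7 CPM in clone 1 libraries, against 56.9 and 233 CPM in WT libraries, with a log2 fold change of -1.0 ± 0.53 (adjusted p = 0.406 in edgeR). Like Itgal it was highest in WT mouse 2 and, among KO libraries, in clone 1 mouse 1, and its GC content is 57.5%. Itga9, a chain that pairs with β1, averaged 124 ± 7.91 CPM in KO (SD, n = 4) and 169 ± 63.6 CPM in WT libraries (SD, n = 2).

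Of 30 listed integrin ligands, 25 were tested and none passed in any contrast. In KO against WT 10 were positive and 15 negative, with a median log2 fold change of -0.15. Thy1, a ligand of αMβ2 and αv integrins that also marks T cells, averaged 10.6 ± 3.38 CPM in KO (SD, n = 4) and 2.70 ± 1.43 CPM in WT libraries (SD, n = 2). Its log2 fold change was 2.02 ± 0.44 with an adjusted p of 0.15 in edgeR. Thbs1, the matrix protein thrombospondin 1, had 399 and 561 CPM in clone 2 and 459 and 449 CPM in clone 1 libraries, against 142 and 267 CPM in WT libraries, all KO libraries being higher (log2 fold change 1.19 ± 0.29, adjusted p = 0.205 in edgeR). C3, the source of the Mac-1 ligand iC3b, had 163 to 278 CPM in KO libraries, against 31.5 and 147 CPM in WT libraries (1.36 ± 0.56, adjusted p = 0.357 in edgeR). Cdh1, the E-cadherin bound by αEβ7, had 10.5 to 12.3 CPM in KO libraries, against 15.1 and 43.1 CPM in WT libraries (-1.38 ± 0.36, adjusted p = 0.235 in edgeR).

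Of 25 genes of integrin activation, 13 were positive and 12 negative in KO against WT, and of 28 genes of integrin signalling 17 were positive and 11 negative. None of either list passed in any contrast, and the medians were 0.04 and 0.11 against 0.003 over all genes tested. The activation list mixes genes that promote activation with genes that restrain it, such as Cytip, so its signs give no direction of activation. Tln1, the talin that switches integrins on, had 823 to 1049.9 CPM in KO libraries, against 945 and 1837 CPM in WT libraries (-0.62 ± 0.28, adjusted p = 0.373 in edgeR), and with 57.0% GC it was again highest in WT mouse 2. Rap1b, the GTPase that recruits talin, had 499 to 606 CPM in KO libraries, against 464 and 234 CPM in WT libraries (0.60 ± 0.28, adjusted p = 0.388 in edgeR), and with 39.9% GC it was lowest in WT mouse 2. Parvg, the leukocyte parvin of the ILK complex, had the smallest p of the signalling list. It had 47.7 and 53.3 CPM in clone 2 and 60.7 and 61.0 CPM in clone 1 libraries, against 81.7 and 107 CPM in WT libraries, so all KO libraries were lower (-0.76 ± 0.18, adjusted p = 0.202 in edgeR). Some list members with small p lay higher in every KO library than in both WT libraries without passing, against 12.9% of all genes tested. They were picked for small p in the same contrast, as were Thbs1 and Parvg, so this separation is not a further result. Among them were Itpr1, a calcium channel of the endoplasmic reticulum, with 75.2 to 98.2 CPM in KO libraries, against 47.5 and 67.6 CPM in WT libraries, and the adaptor Crk with 159 to 195 CPM in KO libraries, against 146 and 101 CPM in WT libraries. Cytip, which restrains the integrin activator cytohesin 1, had 90.0 to 128 CPM in KO libraries, against 80.4 and 66.5 CPM in WT libraries (0.58 ± 0.20, adjusted p = 0.316 in edgeR). Crk (44.9% GC) and Cytip (42.2% GC) were lowest in WT mouse 2, while Itpr1 (49.5% GC) was lowest in WT mouse 1.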

How the data were processed

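Total RNA of sorted macrophages was sequenced after rRNA depletion with a TruSeq kit, per the labels' protocols. The authors deposited whole-number estimated counts by gene symbol with no scaling. The submitters' processing notes name Salmon 0.7.2 and mm10 with no role. The sort markers, transcript set, use of strand and sharing of reads between similar genes were not stated in the labels or notes used here.

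The 6 libraries were grouped by the labels, and those of a group were not copies of each other (chi-square per degree of freedom 83.7 to 892 against counting noise). P-values of the clone contrasts measure the spread between single mice, and 2 mice with 1 clone do not repeat the knockout itself. KO against WT and the tests of shares treat the mice of both clones as 1 group. The KO spread there, and each SD with n = 4, mixes differences between clones with differences between mice. The quasi-likelihood F test of edgeR 4.0.16 in R 4.3.3 was used with TMM factors, genes being kept by filterByExpr (minimum count 10, minimum total 15), and p-values were adjusted by Benjamini-Hochberg over 15560 genes at a threshold of 0.05. KO against WT was fitted with 2 genotype levels, and each clone contrast with 3 groups. The standard error is the absolute log2 fold change divided by the square root of F. Self-checks of the fits were run on simulated counts. Lengths, GC content and positions came from the transcript with the longest coding part in GENCODE M21 (GRCm38), the build that mm10 names. Shares were compared by exact permutation tests.

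Alternatives were RLE factors, DESeq2 1.42.0, limma-voom 3.58.1, no filter, at least 5 CPM in at least 2 libraries, Rn45s left out, the mouse number as a block, the mean of both clones in the 3-group fit, and each library left out. For the shares of the β2 α chains they were coding length, Itgad added to the sum and each library left out, and none was run for the β chain shares. A correction for GC content, chosen after the data were seen, gave edgeR per-library loess fits (span 0.4) on transcript GC as offsets for the 13812 genes with a GC value (88.8% of those tested). The members and gene lists were chosen with earlier results of these data known. All 10 members are named, and from each list the 4 genes with the smallest p in KO against WT and a mean of at least 5 CPM could be named, besides markers and Xkr8. Itgae, Itgb3 and Itgb6 were named as partners of members after their values were seen. Itga7, which the rule on the mean CPM left out, was named for its small p.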

Additional observations from a re-analysis of the deposited data

Results flagged for a closer look

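Of the integrin genes in the 4 KO libraries, Itgal in clone 1 mouse 1 was far from the others. It stood at 132.76 CPM there, against 59.2 CPM in clone 1 mouse 2 and 63.9 and 59.4 CPM in clone 2. The gap to the next library was 0.937 of the whole range, above Dixon's critical value for 4 samples. Chance marks about 1 in 20 groups in this way, and 10 genes were looked at. In the same library the T and NK cell markers had their highest sum, 246 CPM, and the part of such cells in the Itgal value was not tested.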

How the results depend on the processing

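In all 4 contrasts no member was called under any alternative that kept all 6 libraries. Leaving out 1 library at a time gave 0 to 4 members called in KO against WT, 0 to 6 in clone 2 and 0 to 2 in clone 1 against WT, all of the calls without WT mouse 1. The count over all genes moved far more. For KO against WT it was 21, and 499 with DESeq2, 111 with no filter, 1 with the mean of both clones in the 3-group fit, 42 with GC offsets and 1 to 6020 without 1 library. For clone 2 against WT it was 1, and 9 with RLE, 465 with DESeq2, 229 with no filter, 0 with at least 5 CPM, 8 with Rn45s left out, 6 with GC offsets and 0 to 6445 without 1 library. For clone 1 against WT it was 1, and 271 with DESeq2, 123 with no filter, 0 with at least 5 CPM, 11 with GC offsets and 0 to 5535 without 1 library. Between clones it was 0, and 117 with DESeq2, 53 with no filter, 1 with GC offsets and 0 to 87 without 1 library. The mouse numbers did not pair the samples (correlations of deviations -0.25, 0.05 and 0.22), and with the replicate block 15 genes were called in KO against WT and 0 in each clone contrast, with no member among them. With GC offsets, chosen after the data were seen, the KO against WT log2 fold changes of Itga4 (-0.10), Itgav (-0.056) and Itgb1 (-0.18) turned negative. That of Itgb7, 0.005 with the settings used in the text, was -0.0065 with RLE, -0.0085 with DESeq2, -0.055 with at least 5 CPM and -0.0014 in the 3-group fit, against 0.37 with GC offsets, 0.31 with limma-voom and 0.16 with the replicate block. Without 1 library the KO against WT log2 fold change ran from -0.12 to 0.062 for Itgam, -2.04 to 0.53 for Itgal, -0.59 to 0.55 for Itgb2 and -0.64 to 1.21 for Itgb7. Between clones it ran from -0.18 to 0.032 for Itgam, -1.11 to 0.058 for Itgal and -0.14 to 0.62 for Itga4. The difference in the Itgal share ran from -9.37 to 1.15 percentage points. The cause of these changes was not tested. The 20038047 counts of WT mouse 2 were still enough for at least 1738 counts of each member.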
